A study of Canis lupus familiaris with 18 samples.

Results

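The macrophage-rich and macrophage-poor high-grade oligodendrogliomas (HGOs) of 3 dog breeds were compared by RNASeq. Tumors were ranked by a macrophage score, the mean z-score of 5 transcripts of tissue macrophages, CD68, CSF1R, AIF1, TYROBP and CD163, on log2 CPM, read counts scaled to library size. The 5 tumors with the highest score were called macrophage-rich and the 5 with the lowest macrophage-poor, which made 10 of the 16 tumors ranked, from 18 libraries in the series. The other 6 tumors were the middle tumors. The score genes chose the tumors, so their levels are given only as a description and they were left out of all gene results.

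All libraries came from surgically resected forebrain HGO of pet dogs, stored as formalin-fixed, paraffin-embedded tissue, and the study compared French bulldogs with 2 other short-nosed breeds, boxers and Boston terriers. No treatment group, normal brain or sorted cell population was part of the tables used here, and the labels give neither age nor treatment. The macrophage-rich tumors came from French bulldogs 1, 3 and 11, boxer 3 and Boston terrier 7. The macrophage-poor tumors came from French bulldog 4, the tumor of French bulldogs 2 and 8, boxer 1, and Boston terriers 2 and 6. The middle tumors came from 4 French bulldogs and 2 boxers. Boxers and Boston terriers carry the control number of their label. The libraries of French bulldogs 2 and 8 share 1 case number and were summed as 1 tumor, and the library of French bulldog 6, which was almost without transcripts of the glial lineage, was not ranked.

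Macrophages of a brain tumor are resident microglia together with cells that entered from the blood as monocytes. They depend on signals through the CSF1 receptor, take up debris through scavenger and complement receptors, digest it in lysosomes, and can present antigen on MHC class II molecules. In human gliomas they are among the most numerous cells that are not tumor cells, and they often lie close to blood vessels. In a bulk tumor sample, more macrophages and more RNA of the same genes per macrophage cannot be told apart.

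Each of the 16 tumors held between 8212452 and 17924670 counts, the highest being the summed pair, and the totals of the 2 groups differed by less than the spread between tumors (exact permutation p = 0.778, two-sided, as for all permutation tests). None of 5 measures of library composition passed the test, and the smallest p that 5 against 5 tumors allow is 0.00794. The closest were the share of counts on ribosomal protein genes, 0.536% ± 0.0507 in macrophage-rich against 0.651% ± 0.107 in macrophage-poor tumors (exact permutation p = 0.0635, adjusted 0.318), and the share on the single gene with the highest count, 27.3% ± 4.47 against 22.2% ± 5.65 (p = 0.135, adjusted 0.338). The glial lineage gene OLIG2 had at least 1137 counts and SOX10 at least 1986 in every ranked tumor, against 0 and 2 counts in French bulldog 6. The labels name no batch. Library series were therefore assigned here: all French bulldogs were taken as 1 series, and boxers and Boston terriers were divided into 2 further series by the sample index in their library names. Whether these series were processed apart is not known. Under this assignment French bulldogs against the other breeds and library series could not be told apart.

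From the lowest, the macrophage-poor tumors scored −1.51 (French bulldog 4), −1.12 (French bulldogs 2 and 8), −0.891 (boxer 1), −0.666 (Boston terrier 6) and −0.528 (Boston terrier 2). The macrophage-rich tumors scored 0.378 (French bulldog 3), 0.425 (boxer 3), 0.484 (Boston terrier 7), 1.52 (French bulldog 11) and 1.60 (French bulldog 1). French bulldogs 11 and 1 stood well above the other 3 macrophage-rich tumors. The nearest tumor outside the macrophage-poor group was French bulldog 10 at −0.413, and the nearest outside the macrophage-rich group was boxer 4 at 0.275. The 2 libraries of the summed tumor scored −1.22 and −1.12 when taken singly.

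**Figure D1:**
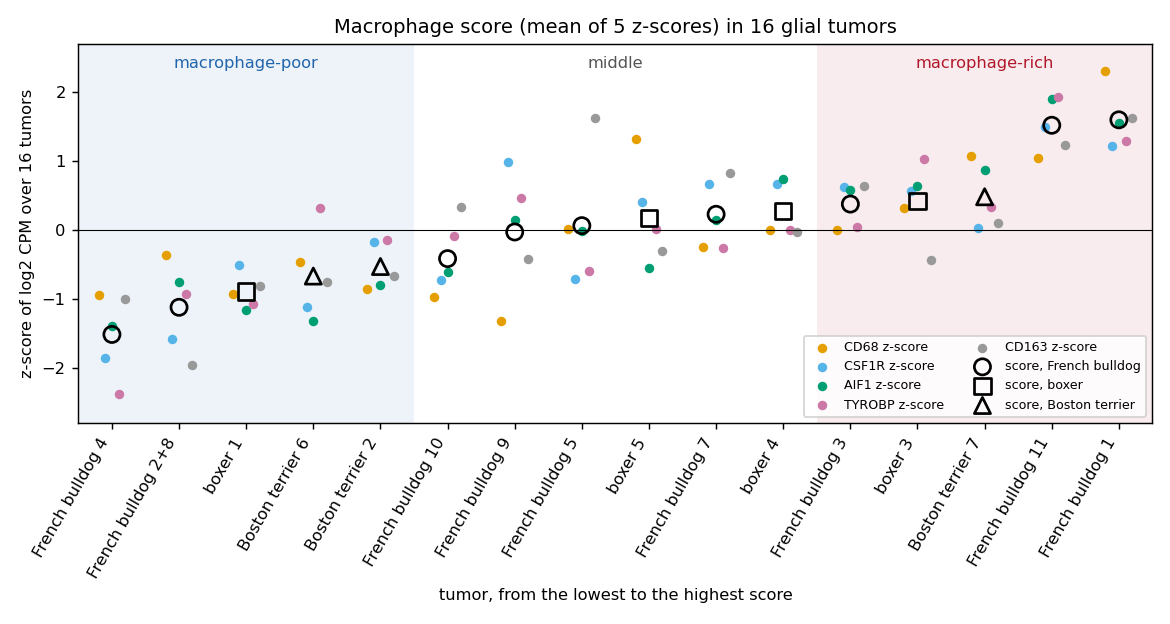
Z-score of log2 CPM over 16 tumors (vertical axis, no unit) for each tumor in order of score; filled points are the 5 score genes and open markers their mean, the macrophage score, shaped by breed, with shading for the groups. French bulldogs 11 and 1 have scores of 1.52 and 1.6, and the other 3 macrophage-rich tumors lie between 0.378 and 0.484, close to the highest middle tumor at 0.275.

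As the plot of the score by tumor shows, both ends of the ranking were French bulldogs. The 9 French bulldog tumors scored 0.0802 ± 1.04 and the 7 tumors of the other breeds −0.103 ± 0.572 (SD), a difference smaller than the spread among tumors (exact permutation p = 0.682). CSF1R, the receptor for CSF1 and interleukin 34, measured 34.3 to 75.5 CPM in the macrophage-rich and 12.3 to 30.7 CPM in the macrophage-poor tumors. CD163, the scavenger receptor for hemoglobin bound to haptoglobin, measured 8.71 to 40.6 against 2.69 to 7.28 CPM. TYROBP (DAP12), an adaptor of receptors on myeloid cells, was the 1 score gene whose groups overlapped, at 4.23 to 8.89 against 1.57 to 4.74 CPM. The score genes were low transcripts, with as few as 17 counts of TYROBP in French bulldog 4, so part of their spread is counting error.

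Differential expression was tested for 16306 genes besides the score genes with edgeR's quasi-likelihood test. No gene passed an adjusted p of 0.05 in the comparison of 5 against 5 tumors, where the smallest adjusted p was 0.0530. At an unadjusted p under 0.05 there were 1612 genes (9.89% of those tested), 1039 higher (6.37%) and 573 lower (3.51%) in macrophage-rich tumors. In 347 genes (2.13%) every macrophage-rich tumor lay above every macrophage-poor tumor, and in 125 (0.767%) every one lay below. DESeq2's Wald test on the same tumors called 328 genes higher and 56 lower, and limma-voom called 18 higher and 0 lower. When the score was used as a continuous covariate over all 16 tumors, 258 genes increased with it (1.58%) and 60 decreased (0.368%) at an adjusted p under 0.05. The counts were 229 and 20 without French bulldog 1, 41 and 0 without French bulldog 11, and 1 and 0 without either; the lowest-scoring tumors were not left out of this fit. A 4-fold difference simulated in 5 against 5 tumors was called in 67.2% of genes and a 2-fold difference in 0%, so 2-fold differences were not detectable at an adjusted p of 0.05.

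**Figure D2:**
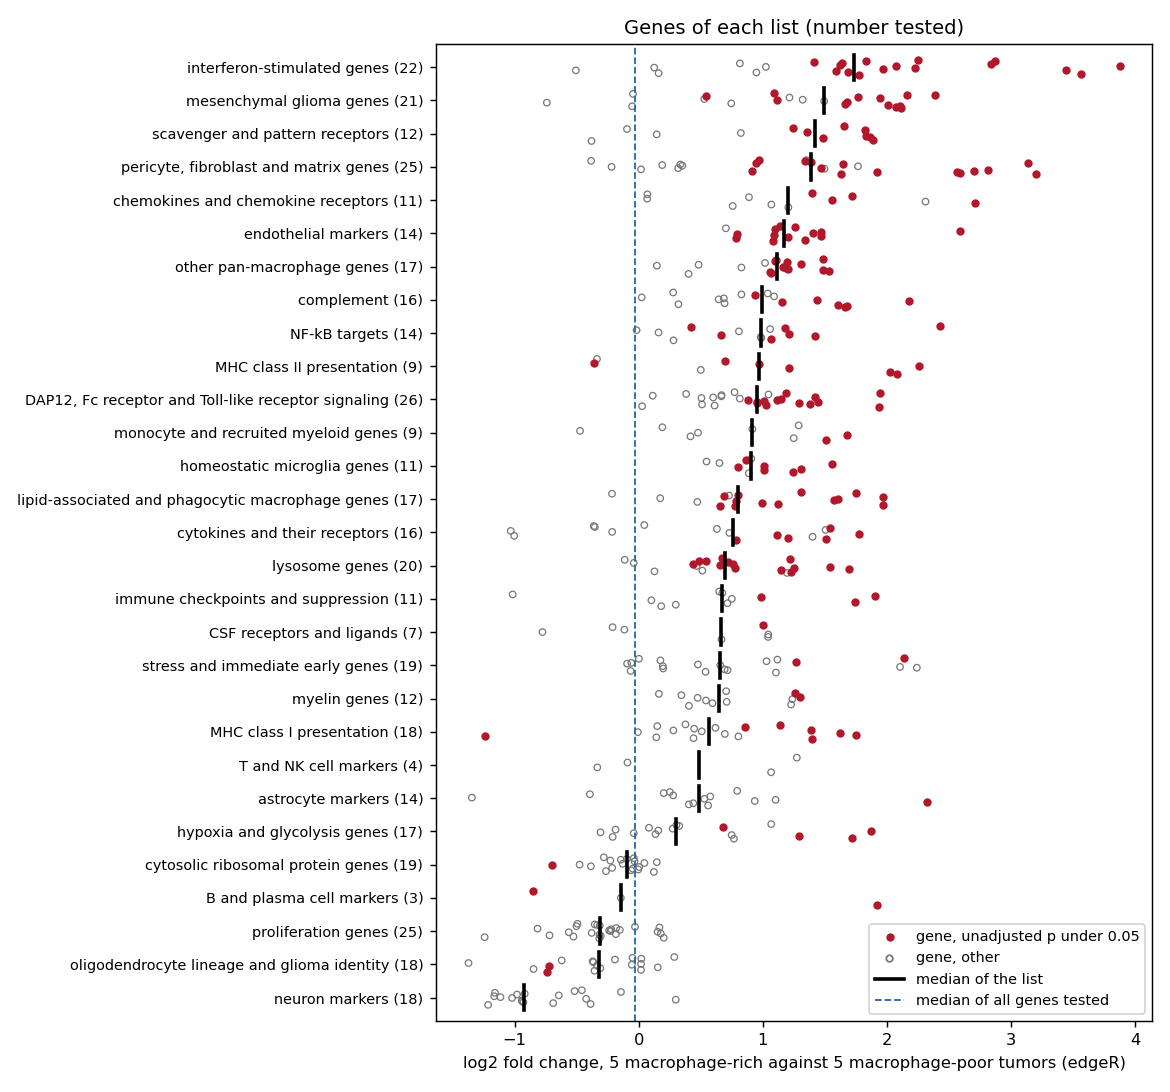
Log2 fold change of macrophage-rich over macrophage-poor tumors (horizontal axis, edgeR) for the tested genes of each list (rows, number of genes in brackets); filled points have an unadjusted p under 0.05, the black bar is the median of the list and the dashed line the median of all genes tested, −0.0296. The endothelial, matrix, mesenchymal and interferon lists have medians of 1.17, 1.39, 1.49 and 1.73, while the neuron, proliferation and oligodendrocyte lineage lists have medians of −0.924, −0.315 and −0.323.

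In all, 32 lists of genes for cell types and pathways were described by their counts and medians, beside a median log2 fold change of −0.0296 over all genes tested, of which 46.9% were above 0. Lists of macrophage genes had to differ between tumors ranked by transcripts of the same cells, so their values are a description of what came with the score. Among 17 other pan-macrophage genes the median log2 fold change was 1.11, all 17 were above 0, 12 had an unadjusted p under 0.05, and 6 did not overlap between groups. Over 16 tumors 11 of the 17 increased with the score at an adjusted p under 0.05. CTSS, a cathepsin of antigen-presenting cells, measured 9.98, 13.0, 14.4, 8.14 and 12.0 CPM in the macrophage-poor and 26.9, 21.2, 21.4, 49.7 and 41.7 CPM in the macrophage-rich tumors, each in the order of their scores (log2 fold change 1.49, p = 0.000303). Its groups did not overlap. CD86, a costimulatory ligand, and SPI1, the transcription factor PU.1, had log2 fold changes of 1.53 and 1.48. ITGAM, an integrin of myeloid cells and neutrophils, had a log2 fold change of 0.48 (p = 0.526), and ADGRE1 had 0.40, with its highest level, 10.7 CPM, in the macrophage-poor Boston terrier 6.

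C1QA, C1QB and C1QC encode the chains of C1q, which starts the classical complement pathway and in brain is made largely by microglia and macrophages. C1QA measured 4.53, 10.4, 9.06, 7.73 and 14.2 CPM in the macrophage-poor and 18.3, 21.9, 16.9, 41.8 and 45.8 CPM in the macrophage-rich tumors (log2 fold change 1.66 ± 0.38 SE, p = 0.00108). The groups did not overlap, and the middle tumors ran from 10.9 to 27.1 CPM. C1QB and C1QC differed by 1.68 and 1.60 on the log2 scale, also without overlap. Over 16 tumors the 3 chains increased with the score (adjusted p = 0.000240, 0.000697 and 0.00104). They did so among the 9 French bulldog tumors alone (adjusted p = 0.0459 for each), which are part of the 16. As transcripts of the cells that the score reads, the 3 chains had to follow it, so these values are a description.

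C3, the central complement protein, measured 29.3, 20.9, 50.4, 34.4 and 71.6 CPM in the macrophage-poor and 57.4, 192, 224, 296 and 164 CPM in the macrophage-rich tumors (log2 fold change 2.17 ± 0.45). French bulldog 3, with the lowest macrophage-rich level, was below Boston terrier 2, so these groups overlapped. All 16 tested complement genes had a log2 fold change above 0, with a median of 0.989, and 7 had an unadjusted p under 0.05. The inhibitors CD55 and SERPING1 had log2 fold changes of 0.02 and 0.28, with p = 0.970 and 0.396.

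Of 9 tested genes of MHC class II presentation 7 had a log2 fold change above 0, with a median of 0.965. CD74, the invariant chain that guides class II molecules to the compartment where peptide is loaded, measured 30.8, 24.8, 34.98, 47.5 and 59.8 CPM in the macrophage-poor and 155, 70.6, 122, 273 and 216 CPM in the macrophage-rich tumors. The log2 fold change was 2.08 ± 0.38 (p = 0.000179, adjusted 0.0922), and no tumor of one group reached the range of the other. Over 16 tumors CD74 increased with the score (adjusted p = 0.000202). Its Spearman correlation of 0.915 to the score was the third highest of the tested genes with a symbol outside the score. DLA-DRA, the class II alpha chain of the dog, had a log2 fold change of 2.26, and CIITA, the activator of class II transcription, one of 2.03. DLA-DRA reached 22.1 CPM in both the highest macrophage-poor and the lowest macrophage-rich tumor. RFX5, a factor that binds class II promoters, had a log2 fold change of −0.36 (p = 0.0499), so 6 of 9 tested genes of the list were higher and 1 lower at an unadjusted p under 0.05.

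Of the class I genes 16 of 18 had a log2 fold change above 0, with 6 higher and 1 lower at an unadjusted p under 0.05 and a median of 0.562. B2M, the light chain of class I molecules, measured 82.5, 35.6, 75.7, 177 and 102 CPM in the macrophage-poor and 149, 102, 138, 592 and 259 CPM in the macrophage-rich tumors. B2M increased with the score over 16 tumors (adjusted p = 0.0217), but did not pass 0.05 with library series as a covariate (adjusted p = 0.0525). The groups overlapped through Boston terrier 6, which had the highest macrophage-poor level. DLA88 had a log2 fold change of 1.75 and DLA-79 one of −1.24 (p = 0.0188). The class I genes of the dog are close copies of each other, and how reads shared among them were counted is not given in the sources used here, so their values are uncertain.

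Microglia genes and genes of recruited monocytes were set side by side. Of 11 tested homeostatic microglia genes all were above 0, with a median of 0.907 and 7 at an unadjusted p under 0.05. CX3CR1, the fractalkine receptor, measured 11.5, 17.6, 22.7, 14.7 and 25.9 CPM in the macrophage-poor and 28.4, 33.8, 25.7, 39.2 and 58.6 CPM in the macrophage-rich tumors (log2 fold change 1.01, p = 0.00505). The groups met at Boston terriers 2 and 7 and overlapped by less than 1 CPM. GPR34 and OLFML3 had log2 fold changes of 1.31 and 1.56, whereas P2RY12 and TMEM119, which are widely used to mark resident microglia, had 0.65 (p = 0.137) and 0.91 (p = 0.144). The 9 tested monocyte genes had a similar median of 0.915, yet only 2 had an unadjusted p under 0.05. The macrophage-poor Boston terrier 6 had the highest monocyte list score of all tumors, a mean z-score of 1.12, above the macrophage-rich tumors at 0.424 to 0.903. CSF3R, the receptor for granulocyte colony-stimulating factor, was also highest there, at 95.6 CPM. So were LTF and CXCR2, genes of neutrophils, at 10.3 and 3.74 CPM, and ALAS2, a heme enzyme of red blood cell precursors, at 22.5 CPM, and the part of blood cells in the monocyte score was not tested.

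Genes of scavenger receptors, lipid handling and lysosomes are described next. Of 12 tested scavenger and pattern receptor genes 8 had an unadjusted p under 0.05, and the median log2 fold change was 1.42. CLEC7A, a receptor for beta-glucan, and MSR1, which takes up modified lipoproteins, had log2 fold changes of 1.83 and 1.82 (p = 0.000352 and 0.00119). MSR1 measured 5.91, 4.34, 6.55, 4.99 and 12.2 CPM in the macrophage-poor and 13.1, 11.6, 20.7, 38.0 and 36.9 CPM in the macrophage-rich tumors. The groups overlapped only between Boston terrier 2 and boxer 3. APOE, the main lipid carrier of brain, measured 161, 199, 290, 154 and 324 CPM against 336, 453, 228, 792 and 642 CPM, with Boston terrier 7 inside the macrophage-poor range. SPP1, or osteopontin, had a log2 fold change of 1.75 and its highest levels in French bulldogs 11 and 1, at 324 and 503 CPM. Of 17 lipid-associated and phagocytic genes 13 had an unadjusted p under 0.05, and of 20 lysosome genes 14, with medians of 0.799 and 0.696.

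CTSB, a lysosomal cysteine protease, had one of the steadiest differences. It measured 45.5, 44.5, 58.2, 48.4 and 52.5 CPM in the macrophage-poor and 90.4, 105, 89.7, 118 and 147 CPM in the macrophage-rich tumors (log2 fold change 1.15 ± 0.18, p = 4.85e-05, adjusted 0.0565). Every macrophage-rich tumor was well above the highest macrophage-poor tumor. In the 6 middle tumors CTSB ran from 46.7 to 104 CPM.

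CSF1, a ligand of the CSF1 receptor, had a log2 fold change of 0.67 (p = 0.0690) and IL34, the other ligand, one of 1.00 (p = 0.0111), and of 7 tested genes of the list none was free of overlap. CSF2 and CSF3 had 0 counts in all 16 tumors. Among 26 genes of DAP12, Fc receptor and Toll-like receptor signaling all were above 0, with a median of 0.951, and 14 had an unadjusted p under 0.05. ARHGDIB, a regulator of small GTPases in blood cells, and TLR7, a receptor for single-stranded RNA, both had a log2 fold change of 1.94. Of 11 chemokine genes 4 had an unadjusted p under 0.05, with a median of 1.20. CCL7, a monocyte attractant, measured 1.57, 0.769, 4.91, 3.07 and 2.05 CPM against 12.1, 6.26, 8.64, 45.5 and 7.87 CPM, without overlap (log2 fold change 2.71).

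Among cytokine genes 6 of 16 had an unadjusted p under 0.05 (median 0.758), including IL10 at a log2 fold change of 1.51 and IFNGR1, a chain of the interferon gamma receptor, at 0.79 (p = 0.000318). VCAM1, a target of NF-kB that binds leukocytes to endothelium, measured 10.7, 2.14, 14.1, 9.55 and 13.4 CPM against 19.5, 42.1, 9.33, 62.7 and 134 CPM (log2 fold change 2.42). Boston terrier 7 was within the macrophage-poor range. Of 14 NF-kB targets 7 had an unadjusted p under 0.05, with a median of 0.984. Of 11 tested checkpoint genes 3 had an unadjusted p under 0.05 on the higher side, with a median of 0.673. LGALS9 (galectin-9) and CD40 had log2 fold changes of 1.91 and 1.74, while CD274, which encodes PD-L1, had 0.30 (p = 0.304). NT5E, the ectoenzyme CD73 that makes adenosine, had −1.02.

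Interferon-stimulated genes had the highest median among the 32 lists, and 1 tumor set its size. Of 22 tested genes 21 had a log2 fold change above 0, with a median of 1.73; 16 had an unadjusted p under 0.05, and 8 did not overlap. Over 16 tumors 12 increased with the score at an adjusted p under 0.05. DDX60, a helicase of the antiviral response, measured 0.924, 1.54, 0.867, 6.48 and 2.61 CPM in the macrophage-poor and 5.71, 8.35, 4.49, 95.5 and 31.8 CPM in the macrophage-rich tumors (log2 fold change 3.56 ± 0.97). MX2 measured 35.9, 17.1, 34.8, 36.2 and 42.0 CPM against 51.9, 61.4, 60.7, 445 and 70.5 CPM. In both genes French bulldog 11 stood far above every other tumor.

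ISG15, a ubiquitin-like protein, measured 33.0 CPM in French bulldog 11 and 1.25 to 2.51 CPM in the other macrophage-rich tumors. Its macrophage-poor levels were 1.02, 0.384, 0, 0.415 and 0.933 CPM, where 3 counts correspond to 0.165 to 0.289 CPM. The list score, the mean z-score of the 22 genes, was 2.44 in French bulldog 11 and 0.132 to 0.420 in the other 4 macrophage-rich tumors, against −1.44 to −0.154 in the macrophage-poor tumors. Without French bulldog 11 the median log2 fold change of the list was 0.896, so the size of the difference depended on that tumor and its direction did not. SAMD9L was less dependent on it, at 46.6, 34.8, 28.8, 140 and 55.98 against 11.9, 9.39, 17.1, 9.22 and 17.0 CPM. The other 4 macrophage-rich tumors also lay above every macrophage-poor tumor. SAMD9L increased with the score over 16 tumors and among the 9 French bulldogs (adjusted p = 0.000697 and 0.0459), as did DDX60 (adjusted p = 0.000728 and 0.0459). Both fits include French bulldog 11 and do not bear on its part.

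**Figure D3:**
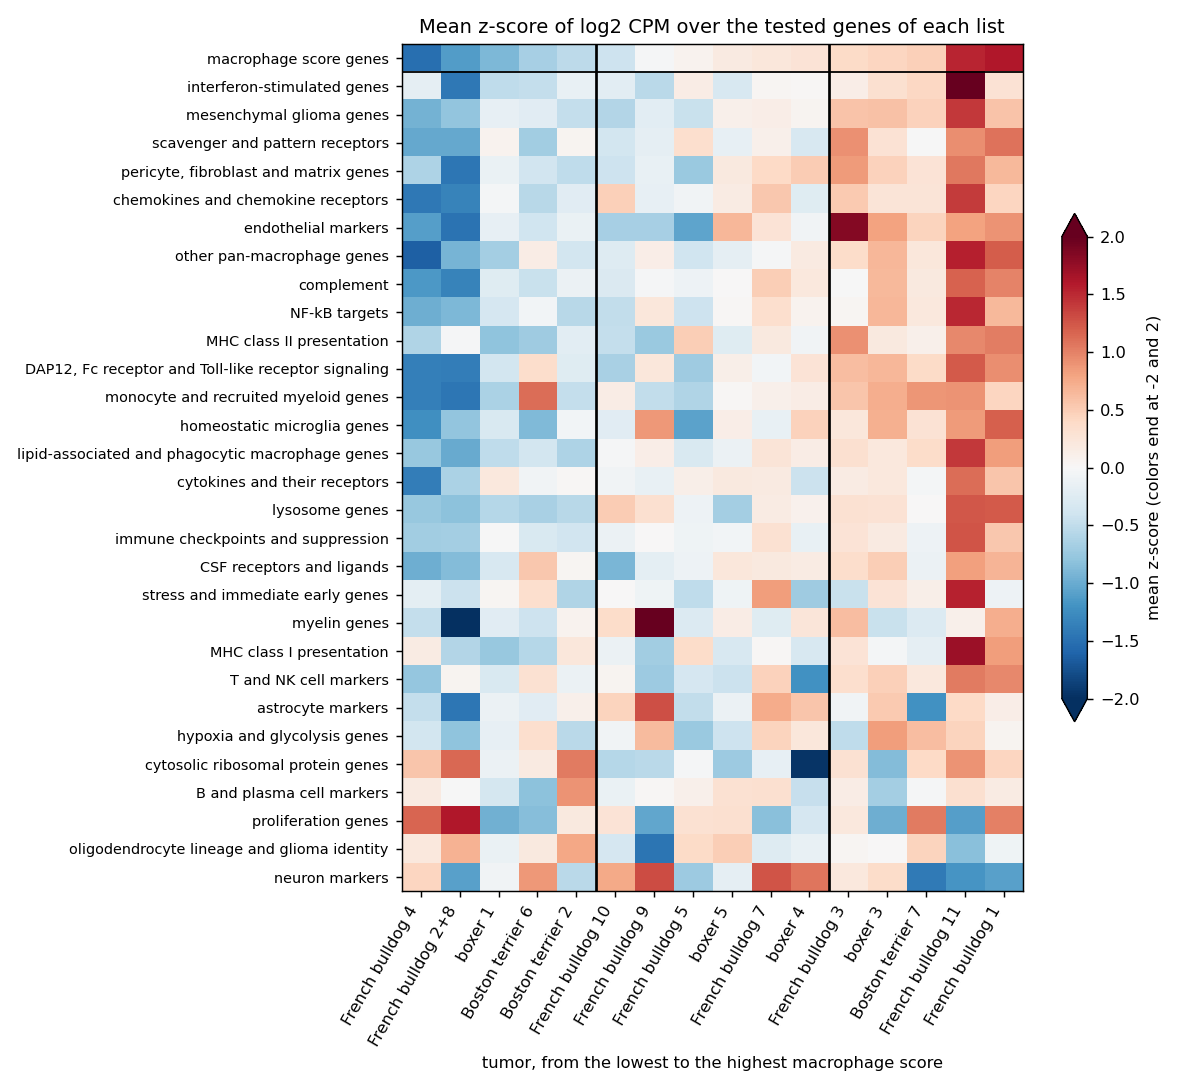
List score, the mean z-score of the tested genes of a list (rows), in each tumor (columns, from the lowest to the highest macrophage score), shown by color from blue (low) to red (high), with black lines between macrophage-poor, middle and macrophage-rich tumors. For endothelial, matrix and mesenchymal genes every macrophage-rich tumor is above every macrophage-poor tumor, and for interferon-stimulated genes French bulldog 11 stands apart at 2.44.

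Genes of blood vessels and connective tissue are described next. Of 14 endothelial markers all had a log2 fold change above 0, with a median of 1.17; 13 had an unadjusted p under 0.05 and 8 did not overlap. PLVAP, the diaphragm protein of fenestrated and leaky endothelium, measured 2.77, 3.46, 5.49, 5.07 and 5.13 CPM in the macrophage-poor and 43.2, 13.2, 30.1, 20.4 and 25.7 CPM in the macrophage-rich tumors. Its log2 fold change was 2.59 ± 0.34 (p = 8.83e-06, adjusted 0.0530), the smallest p among all genes of the lists. The highest level belonged to French bulldog 3, the lowest-scoring macrophage-rich tumor. KDR, the main VEGF receptor of endothelium, had a log2 fold change of 1.40 ± 0.23, and PECAM1 one of 1.47 ± 0.28, with 131 CPM in French bulldog 3. ANGPT2, which destabilizes vessels, had 1.08, and TEK, its receptor, 0.70 (p = 0.111). VEGFA ranged from 67.1 to 426 CPM in the macrophage-rich and from 42.9 to 253 CPM in the macrophage-poor tumors, so the groups overlapped widely (p = 0.0988).

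Over 16 tumors 2 of the 14 endothelial markers, PLVAP and ENG, increased with the score at an adjusted p under 0.05 (0.0240 and 0.0407), and none did so among the 9 French bulldogs alone. The endothelial list score of the macrophage-rich tumors, 0.442 to 1.83, did not overlap with that of the macrophage-poor tumors, −1.48 to −0.139, and was highest in French bulldog 3. The endothelial signal and the macrophage score therefore did not rank the macrophage-rich tumors in the same order.

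Of 25 genes of pericytes, fibroblasts and matrix, 15 had an unadjusted p under 0.05, 10 did not overlap, and the median log2 fold change was 1.39. COL3A1, a fibrillar collagen, measured 18.3, 7.19, 23.7, 19.4 and 24.5 CPM in the macrophage-poor and 132, 65.7, 77.2, 155 and 122 CPM in the macrophage-rich tumors (log2 fold change 2.56 ± 0.36, adjusted p = 0.0530). Over 16 tumors it increased with the score (adjusted p = 0.00598). COL1A1 had a log2 fold change of 3.20 ± 0.63, with 302 CPM in French bulldog 11 and 45.7 to 78.8 CPM in the other macrophage-rich tumors, against 4.83 to 20.04 CPM. FN1, fibronectin, was level in the macrophage-poor tumors, at 158, 154, 154, 147 and 174 CPM, and measured 612, 535, 398, 290 and 339 CPM in the macrophage-rich tumors. Neither FN1 nor COL4A2, a chain of the vascular basement membrane with a log2 fold change of 1.92, passed the test over 16 tumors (adjusted p = 0.203 and 0.118).

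The list was not uniform. PDGFRB, the growth factor receptor of pericytes, had a log2 fold change of 0.95 (p = 0.0259), and CSPG4 and THY1 of the same list had 0.02 and −0.38. The protease MMP2 had 0.19 (p = 0.746).

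Genes of the mesenchymal state of glioma had a median log2 fold change of 1.49, and 13 of 21 had an unadjusted p under 0.05. EMP1, a membrane protein, had a log2 fold change of 2.01 ± 0.30 (adjusted p = 0.0530). ANXA2, a calcium-dependent membrane binder, measured 6.65, 6.26, 7.71, 11.2 and 6.91 CPM in the macrophage-poor and 26.4, 17.5, 15.7, 77.6 and 24.9 CPM in the macrophage-rich tumors, and increased with the score over 16 tumors (adjusted p = 0.00142). CD44, the hyaluronan receptor, measured 14.3, 6.53, 30.4, 31.4 and 44.6 CPM against 33.0, 65.1, 39.0, 310 and 99.7 CPM, with overlap between the groups. TNC, a matrix glycoprotein, had a log2 fold change of 2.16. CAV1, TRADD and IL13RA2 were at −0.05, −0.05 and −0.74, none with p under 0.05. Many genes of this list are also made by macrophages and vessel walls, whose list scores moved with it, and how much of the difference came from each was not tested.

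**Figure D4:**
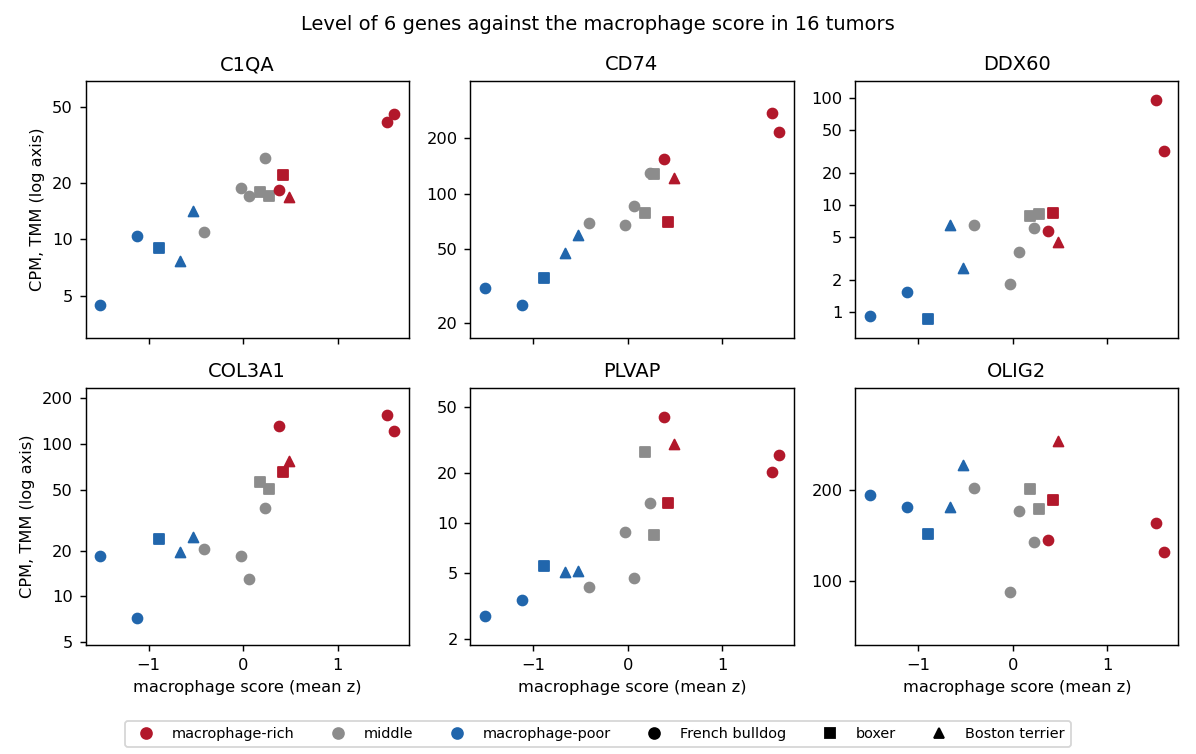
TMM-scaled CPM on a log axis (vertical) against macrophage score (horizontal) for C1QA, CD74, DDX60, COL3A1, PLVAP and OLIG2, with 1 point per tumor, colored by group and shaped by breed. C1QA and CD74 run from 4.53 to 45.8 and from 24.8 to 273 CPM along the score, and OLIG2 lies between 91.9 and 291 CPM with macrophage-rich and macrophage-poor tumors intermixed.

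Few transcripts of T cells were counted. Only 4 of 26 listed T and NK cell markers passed the filter on low counts, with none at an unadjusted p under 0.05. CD3E, part of the T cell receptor complex, was at most 0.702 CPM and CD8A at most 0.394 CPM in any tumor. The whole list summed to 16.8 to 26.1 CPM in the macrophage-rich and 4.90 to 51.3 CPM in the macrophage-poor tumors, so the groups overlapped. Of 12 B and plasma cell markers 3 were tested. CD79A, a chain of the B cell receptor complex, measured 52.1 to 122 CPM over the 16 tumors and had a log2 fold change of −0.14 (p = 0.496). CD22 had 1.92 (p = 0.00797), and JCHAIN, which joins the chains of secreted antibody, had −0.85 (p = 0.0175). Of 10 neutrophil and mast cell markers 2 were tested, MPO, myeloperoxidase, with a log2 fold change of −1.93 (p = 0.00973), and GATA2, a transcription factor, with 0.26 (p = 0.516). MPO did not follow other neutrophil genes. It was highest in the tumor of French bulldogs 2 and 8, at 5.76 CPM, where CXCR2 and LTF were each at 0.0549 CPM. In Boston terrier 6, where CXCR2 and LTF were highest, MPO was at 0.997 CPM. Red blood cell markers did not pass the filter and summed to 0.545 to 15.7 CPM against 0 to 29.6 CPM, the highest in Boston terrier 6.

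Genes of the tumor lineage overlapped between the groups. OLIG2, a transcription factor of the oligodendrocyte lineage, measured 193, 176, 143, 176 and 244 CPM in the macrophage-poor and 137, 186, 291, 155 and 125 CPM in the macrophage-rich tumors (log2 fold change −0.06 ± 0.25, p = 0.823). The groups overlapped, and the sign of its fold change turned when single tumors were left out. The 18 lineage genes had a median of −0.323, with 13 below 0 and 2 at an unadjusted p under 0.05, among them NKX2-2 at −0.73. PDGFRA, the growth factor receptor of oligodendrocyte precursors, ranged from 210 to 1750 CPM in the macrophage-rich and from 527 to 5126 CPM in the macrophage-poor tumors (log2 fold change −1.37 ± 0.70, p = 0.0754). French bulldog 11 and French bulldog 1 were at 210 and 283 CPM, and the summed tumor of French bulldogs 2 and 8 was at 5126 CPM.

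Genes of the surrounding brain did not move as 1 group. All 12 myelin genes were above 0 with a median of 0.649, but 2 had an unadjusted p under 0.05, among them MBP at 1.30, and none was free of overlap. Of 18 neuron markers 17 were below 0, with a median of −0.924 and none at an unadjusted p under 0.05. Neuron list scores ran from −1.41 to 0.364 in the macrophage-rich and from −1.09 to 0.873 in the macrophage-poor tumors. The 14 astrocyte markers had a median of 0.484. GFAP, the astrocyte filament protein, had a log2 fold change of 1.10 (p = 0.129), and CHI3L1, a secreted protein of reactive astrocytes and macrophages, one of 2.32 (p = 0.00199).

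The list scores of proliferation and of hypoxia genes overlapped between the groups. Of 25 proliferation genes 21 were below 0 with a median of −0.315, and none had an unadjusted p under 0.05. MKI67 measured 232, 704, 47.4, 42.9 and 113 CPM in the macrophage-poor and 121, 43.6, 220, 46.3 and 207 CPM in the macrophage-rich tumors. The level of 704 CPM belonged to the summed tumor of French bulldogs 2 and 8, and without it the log2 fold change of MKI67 went from −0.82 to 0.23. Of 17 hypoxia and glycolysis genes 4 had an unadjusted p under 0.05 on the higher side, with a median of 0.303. Cytosolic ribosomal protein genes had a median of −0.0967, and stress and immediate early genes one of 0.656 with 2 of 19 at an unadjusted p under 0.05. FOS was at 712 CPM in French bulldog 11.

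Differences were also taken within breed and library series, where the groups shrink to 1 to 3 tumors; they are given as values. With library series as a covariate in the comparison of 5 against 5 tumors, edgeR's quasi-likelihood test called 0 genes at an adjusted p under 0.05, and 946 were higher and 517 lower at an unadjusted p under 0.05. The endothelial list score was higher in macrophage-rich than macrophage-poor tumors by 2.46 in French bulldogs, by 0.959 in the second library series and by 0.834 in the third. For matrix genes these differences were 1.87, 0.786 and 0.650, and for interferon-stimulated genes 1.76, 0.658 and 0.901. Pan-macrophage genes differed by 2.32, 1.19 and 0.0739. The direction was thus shared by all 3 series for these 4 lists. Monocyte genes (2.03, 1.28 and −0.235), neuron markers (−0.357, 0.666 and −2.29) and proliferation genes (−1.34, −0.601 and 1.88) did not keep 1 direction. Nor did myelin genes (1.73, −0.363 and 0.138), astrocyte markers (1.12, 0.521 and −0.99) or oligodendrocyte lineage genes (−0.744, −0.307 and 0.248). The lists of CSF receptors and ligands, T and NK cells, B and plasma cells, ribosomal proteins and stress genes also changed direction. With library series as a covariate over 16 tumors, 217 genes increased with the score (1.33%) and 45 decreased (0.276%), and in the 9 French bulldogs alone 23 increased (0.141%) and 0 decreased.

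The 6 middle tumors were not used for the contrast and gave a separate reading of the slope on the score. Their scores covered only −0.413 to 0.275, and no gene passed an adjusted p of 0.05; 509 genes (3.12%) had an unadjusted p under 0.05, 273 with a slope above 0 (1.67%) and 236 below (1.45%). Over all genes 53.5% of the slopes were above 0, with a median of 0.0821 log2 units per unit of score. Of the 347 genes in which every macrophage-rich tumor lay above every macrophage-poor tumor, 267 (76.9%) had a slope above 0 in the middle tumors, with a median of 0.828. Of the 125 genes in the opposite direction, 88 (70.4%) also had a slope above 0, with a median of 0.338, so the lower genes did not keep their direction there. Median slopes were 1.82 for matrix genes, where 24 of 25 were above 0, 1.17 for endothelial markers (13 of 14) and 1.25 for mesenchymal genes. The median was 0.253 for pan-macrophage genes. It was below 0 for monocyte genes (−0.098), chemokine genes (−0.17), lysosome genes (−0.294), T and NK cell markers (−0.629), proliferation genes (−0.641) and myelin genes (−1.83), and also for ribosomal protein genes (−0.2) and astrocyte markers (−0.023). PLVAP illustrates the spread, with 4.11, 8.89, 4.68, 26.9, 13.2 and 8.50 CPM in the middle tumors in order of score.

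Genes outside the lists are given next, chosen after their values were seen. COL12A1, a collagen of the surface of collagen fibrils, had the smallest p of the genes with a symbol, with a log2 fold change of 2.55 ± 0.33 (p = 7.03e-06, adjusted 0.0530). IGFBP7, a secreted protein of vessels, had 1.45, PDGFB, the growth factor with which endothelium recruits pericytes, 1.65, JAG1, a Notch ligand, 1.32, and the actin bundler PLS3 1.38. CD34, a surface protein of vessels and blood stem cells, had 1.51. For each of these genes every macrophage-rich tumor lay above every macrophage-poor tumor, as in 2.13% of all genes tested.

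Among genes with a symbol outside the score, those whose levels followed the score most closely were MNDA, MSN, CD74, LGALS9, KCNQ1, OAS2, SAMD9L, TRAM2, TRIM22 and COL1A1. Their Spearman correlations were 0.891 to 0.926 over 16 tumors. The tumors share libraries, depth and scaling with the score, so the correlations are a description. MNDA, a nuclear protein of myeloid cells, was first, and measured 3.69, 2.14, 3.66, 3.49 and 5.60 CPM in the macrophage-poor, 3.71, 7.51, 6.32, 7.74, 6.93 and 6.89 CPM in the middle and 14.6, 9.17, 8.90, 40.7 and 15.7 CPM in the macrophage-rich tumors. Macrophage-poor and macrophage-rich tumors did not overlap. MSN, moesin, which links the cell membrane to actin, measured 20.6 to 38.0 CPM in the macrophage-poor and 71.2 to 112 CPM in the macrophage-rich tumors. TRIM22, an interferon-induced protein, had a log2 fold change of 3.31, and among the 9 French bulldogs it increased with the score (adjusted p = 0.0459), as did LGALS9 (adjusted p = 0.0470).

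Genes lower in macrophage-rich tumors were grouped by chromosome, a choice made after the genes with the smallest p had been seen. Of 11504 tested genes with a symbol, 11073 (96.3%) could be placed on 1 chromosome by a RefSeq gene table of the dog assembly UU_Cfam_GSD_1.0, of which 11068 were outside the score. Over these genes 3.38% were lower at an unadjusted p under 0.05, and 0.669% lay lower in every macrophage-rich tumor. On chromosome 35, 41 of 90 genes (45.6%) were lower at an unadjusted p under 0.05 and 22 (24.4%) lay lower in every macrophage-rich tumor, with a median log2 fold change of −0.487. On chromosome 13, 70 of 219 genes (32.0%) were lower, 5 without overlap, with a median of −0.521. Chromosome 29 followed with 11 of 110 genes (10.0%) and a median of −0.308. Of the 50 placed genes that decreased with the score over 16 tumors at an adjusted p under 0.05, 16 were on chromosome 35 and 7 on chromosome 13. No gene decreased with the score at that threshold without French bulldog 11 or among the 9 French bulldogs alone.

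**Figure D5:**
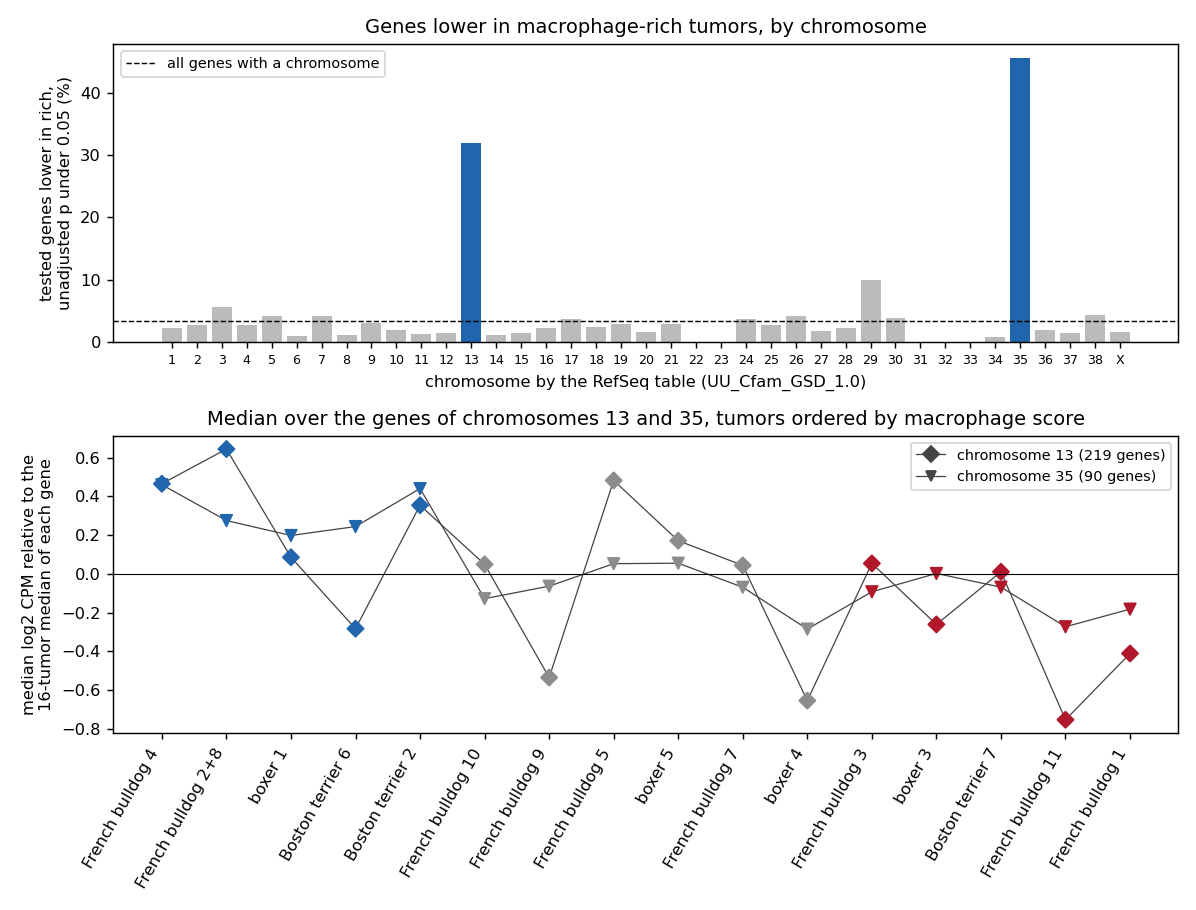
Top, percent of tested genes on each chromosome that were lower in macrophage-rich tumors at an unadjusted p under 0.05 (bars from 0), with a dashed line at 3.38% for all placed genes. Bottom, median log2 CPM of the genes of chromosomes 13 and 35 in each tumor (tumors ordered by score, colored by group), relative to each gene's median over 16 tumors and to the tumor's median over all genes; on chromosome 35 the macrophage-poor tumors lie between 0.198 and 0.460 and the macrophage-rich tumors between −0.273 and 0.00192.

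The level of chromosome 35 genes separated the groups as a block. Relative to each gene's median over the 16 tumors and to the median of all genes in the tumor, the median log2 CPM was 0.460, 0.275, 0.198, 0.244 and 0.440 in the macrophage-poor and −0.0925, 0.00192, −0.0688, −0.273 and −0.182 in the macrophage-rich tumors. All macrophage-poor tumors lay above the middle tumors, which ran from −0.285 to 0.0550, and all macrophage-rich tumors lay within the range of the middle tumors. ZSCAN23, a zinc finger protein, measured 38.1, 44.6, 43.5, 36.3 and 49.6 CPM in the macrophage-poor and 21.3, 19.1, 26.0, 11.4 and 21.4 CPM in the macrophage-rich tumors (log2 fold change −1.10 ± 0.21, p = 0.000291, adjusted 0.102). ZKSCAN8 had −0.84 ± 0.17, CDKAL1, an enzyme that modifies transfer RNA, −0.91, and PRPF4B, a kinase of the spliceosome, −0.66. ZBED9 and RIOK1 decreased with the score over 16 tumors (adjusted p = 0.00545 and 0.0137), and neither call was made without French bulldog 11. Within the middle tumors the median slope of chromosome 35 genes was 0.131.

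Chromosome 13 had the widest range of any chromosome among the 16 tumors, 1.40 on the log2 scale. Its median was 0.465, 0.644, 0.0855, −0.283 and 0.354 in the macrophage-poor and 0.0539, −0.261, 0.0107, −0.753 and −0.411 in the macrophage-rich tumors. These groups overlapped through Boston terrier 6. DNA copy number was not measured, and the cause of the chromosome differences was not tested.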

How the data were processed

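RNA of 18 libraries from formalin-fixed tumor scrolls was sequenced by the authors (SMARTer Stranded Total RNA-Seq Pico kit, paired reads). Per the labels, reads were trimmed with Trimmomatic 0.33, aligned with HISAT2 2.1.0 and counted with featureCounts; the study's methods name the Dog10K_Boxer_Tasha (canFam6) genome. Strand and multi-mapping settings are not given in the sources used here. The deposited values were raw counts of 29993 genes, of which 16324 had a symbol, and libraries held 8212452 to 13169880 counts.

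The libraries of French bulldogs 2 and 8 were summed, French bulldog 6 was left out, and the macrophage score was computed on log2 CPM scaled by the trimmed mean of M values (TMM, prior count 2). Genes were filtered by edgeR's filterByExpr, which left 16311, and tested with edgeR 4.0.16 (robust quasi-likelihood, Benjamini-Hochberg adjustment at 0.05) in R 4.3.3. Printed CPM are TMM-scaled and log2 fold changes are macrophage-rich over macrophage-poor. Alternatives included limma-voom 3.58.1, DESeq2 1.42.0, other scalings, other group sizes, the score as a covariate, and leaving out each tumor or score gene. List scores are mean z-scores over the 16 tumors. Intervals and floors (3 counts, 0.165 to 0.351 CPM) cover counting error only. Each library is labelled as 1 dog, so p-values measure the spread between these tumors. In simulated 5 against 5 tumors the test called 0 of 194 genes at 2-fold, 133 of 198 at 4-fold and 178 of 195 at 8-fold; for a simulated slope of 1 over 16 tumors it called 139 of 200.

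The members, gene lists and tests were chosen with earlier results of these data known. Any gene of the 32 lists could be named, together with the 10 genes with a symbol closest to the score by Spearman correlation. Other genes were named after their values were seen. Figures were drawn with matplotlib 3.10.9. Counts and medians of lists include genes that are not named here.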

Additional observations from a re-analysis of the deposited data

Results flagged for a closer look

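Among 152 groups of 5 tumors, 10 held 1 tumor that stood apart from the other 4 by Dixon's criterion, which chance alone meets in about 1 in 20 groups. French bulldog 11 stood apart in 5 of them. Its list score was 2.44 for interferon-stimulated genes (next macrophage-rich tumor 0.420), 1.40 for chemokines and their receptors (next 0.529) and 1.41 for mesenchymal genes (next 0.582). Its levels of COL1A1 and ISG15 were 302 CPM (next 78.8) and 33.0 CPM (next 2.51).

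The summed tumor of French bulldogs 2 and 8 stood apart at the low end of the macrophage-poor group. Its list score was −1.44 for interferon-stimulated genes (next −0.512) and −2.01 for myelin genes (next −0.477). It had 7.19 CPM of COL3A1 (next 18.3) and 3.90 CPM of COL6A1 (next 16.7). French bulldog 1 stood apart for CTSC, a lysosomal protease, at 67.7 CPM (next 42.7).

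French bulldog 6, which entered no comparison, had a macrophage score of 6.77 on the scale of the 16 ranked tumors, whose highest was 1.60.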

How the results depend on the processing

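No paired analysis was possible because the groups share only 1 label number, carried by dogs of different breeds (French bulldog 1 and boxer 1). Genes called at an adjusted p under 0.05 numbered 0 higher and 0 lower in the comparison of 5 against 5 tumors with edgeR. The counts were 20 and 0 with no filter on low counts, 18 and 0 with limma-voom, 328 and 56 with DESeq2, 87 and 1 for 8 against 8 tumors, and 2 and 0 without AIF1 in the score. Leaving out 1 tumor each gave 0 to 4 higher, the 4 without the tumor of French bulldogs 2 and 8, and 0 lower. With the score as a covariate they were 258 and 60 over 16 tumors, 217 and 45 with library series, 23 and 0 in the 9 French bulldogs, 229 and 20 without French bulldog 1, 41 and 0 without French bulldog 11, and 1 and 0 without both; the last 3 settings were chosen after seeing the data. The cause of these differences was not tested. With French bulldog 6 kept, the median log2 fold change was 3.20 for pan-macrophage genes and 0.674 for endothelial markers, and the median log2 fold change of oligodendrocyte lineage and glioma identity genes was −0.633. The interferon median was 0.896 to 1.96 when 1 tumor was left out, and 0.872 as a slope without French bulldog 11. When 1 tumor was left out, the log2 fold change of OLIG2 ran from −0.299 to 0.0647 (without Boston terrier 2; also above 0 without French bulldog 1 or 3) and the log2 fold change of MKI67 from −1.11 to 0.226 (without the tumor of French bulldogs 2 and 8). The log2 fold change of OLIG2 was 0.151 for 4 against 4 tumors, 0.0511 without AIF1 and 0.0211 without CD163 in the score, and 0.0501 as a slope without French bulldogs 1 and 11. Of 1518 alternative values of 46 genes, 1324 kept their direction and side of the threshold, 186 passed it, and 8 turned. This tally does not cover every gene named here. CSPG4, for example, had a log2 fold change of 0.018 in 5 against 5 tumors and a slope of −0.157 over 16 tumors. Of 1056 values of list and chromosome medians, 1007 moved by less than the spread between tumors. Leaving CSF1R out of the score kept all 10 tumors in their groups, and leaving out CD68, AIF1 or TYROBP replaced 1 macrophage-rich tumor; CD163 replaced 1 in each group. Low counts of the score genes limit the ranking near its thresholds.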

Other observations

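Levels of whole chromosomes in single tumors are given here as values; the tumors and chromosomes were chosen after their values were seen. The summed tumor of French bulldogs 2 and 8, which is macrophage-poor, had median log2 CPM values below those of the other tumors on several chromosomes, relative to each gene's median over 16 tumors and the tumor's median over all genes: −0.862 on chromosome 32, −0.759 on chromosome 31, −0.706 on chromosome 6 and −0.666 on chromosome 23. It was at 0.664 on chromosome 37. French bulldog 1 was at 0.674 on chromosome 8, the highest of the 16 tumors there. Boston terrier 7 was at 0.490 on chromosome 23 and −0.598 on chromosome 12. DNA was not measured in these libraries, and the cause was not tested.

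Middle tumors held some of the highest levels of genes that were not macrophage genes. French bulldog 9, in the middle of the ranking, had 4777 CPM of MBP and a myelin list score of 2.09, the highest of all 16 tumors, together with the highest neuron list score, 1.31, and the lowest lineage list score, −1.46. NT5E measured 857 CPM in the tumor of French bulldogs 2 and 8 and 71.5 CPM in French bulldog 9.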
